A study of Rattus norvegicus with 6 samples.

Results

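Potassium channel subunits other than those of the ATP-sensitive channel were followed through the postnatal maturation of rat beta cells. The members were all probe sets whose single gene symbol in the array's annotation begins with Kcn and a further letter, without Kcnj11, Kcnj8 and Kcnip1 to Kcnip4. The rule found 77 probe sets for 77 genes among 29214 probe sets in all, of which 15310 had 1 gene symbol and stood for 14506 genes. Each member thus had 1 probe set. The samples were beta cell-enriched preparations from the pancreas of male Wistar rats, sorted without an antibody by scatter and autofluorescence, and described by the series as primary cultured. Postnatal day 20 pups, at suckling age, gave 3 preparations, and young adults of 2 months and 250 to 280 g gave 3, each hybridised to its own whole-transcript array. No genotype or treatment is named for either age, and the labels do not say how many animals were pooled in a preparation. The series sets the immature against the mature cells, and the question put to these genes is which channel subunits differed between them.

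Potassium channels let potassium leave the cell, which holds the membrane near rest and ends each action potential. In beta cells, closure of the ATP-sensitive channel starts the electrical activity that brings calcium in and releases insulin. Other potassium channels, opened by voltage or by calcium, then repolarise the membrane between spikes and between bursts of spikes. Most pores are built from several subunits, and auxiliary subunits change how they open without forming a pore of their own.

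Values are log2 signals after RMA, the normalization the authors applied to the arrays, so 1 unit of difference stands for 2-fold. The array medians lay between 6.35 and 6.39 and the first quartiles between 4.91 and 4.94. The arrays have no detection calls, so for a signal around or under the first quartile it is not known whether it exceeds background. Of the 8 measured beta cell markers 6 were higher in adult, and their mean per array ran from 11.64 to 12.13 in adult and from 10.31 to 10.92 at day 20. Acinar markers were bright too at day 20 and in adult, with means per array of 13.48 to 13.59 in adult and 13.42 to 13.66 at day 20. Endothelial markers were lower in adult for 10 of 11 measured genes, with means of 5.66 to 5.79 against 6.53 to 7.08. Markers of fibroblasts and stellate cells were lower for 6 of 10, with means of 5.96 to 6.17 against 6.75 to 7.01. Of 5 measured alpha cell markers 1 was higher in adult, Loxl4, and 1 lower, Ttr. Their means per array were 8.15 to 8.44 in adult and 8.25 to 8.69 at day 20. Gcg had means of 13.35 in adult and 14.08 at day 20 (adjusted p = 0.072). Markers of delta, PP and epsilon cells, also endocrine cells of the islet, were lower for 5 of 7. Their means were 7.32 to 7.47 against 8.18 to 8.75. The hormone genes Ppy and Pyy were 4.23- and 4.75-fold lower in adult (adjusted p = 1.4e-04 and 5.5e-04). Duct markers were lower for 3 of 8, with means of 7.62 to 7.68 against 7.83 to 8.32. Leukocyte and macrophage markers were lower for 2 of 11, with means of 5.46 to 5.52 against 5.81 to 5.95. Of 8 measured markers of neurons and Schwann cells 1 was higher in adult, Nefm (adjusted p = 0.043), at signals around the first quartile. The means of these 8 were 5.55 to 5.67 in adult and 5.43 to 5.50 at day 20. Signals of other cell types were thus present, and some of them differed with age. Their part in the differences of the channel genes was not tested. In such bulk samples fewer cells of a type and less RNA per cell cannot be told apart.

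Of the 77 members 12 were higher in adult and 0 were lower, the 12 being 11 pores of several kinds and 1 auxiliary subunit. The large-conductance calcium-activated channel Kcnma1, the inward rectifier Kcnj13, the small-conductance calcium-activated channel Kcnn3 and the delayed rectifier Kcnb2 were 2.08- to 2.76-fold higher. The others called were Kcna2, Kcna4, Kcnh2, Kcnh7, Kcnq5, Kcnj5, Kcnk2 and Kcnmb2, at 1.38- to 1.65-fold. With the mean signal of 12 pan-endocrine genes, which was itself higher in adult, added to the fit, Kcnj13 was the 1 member of the 12 that kept its call, and the log2 difference of Kcnma1 went from 1.47 to 0.37. The test was limma's moderated test over all 14506 genes with Benjamini-Hochberg adjustment and a threshold of 0.05. Over all genes it called 22.7%, with 11.8% higher and 10.9% lower in adult, against 15.6% higher and 0% lower of the members. At an unadjusted p under 0.05 it counted 16 of the 77 members higher and 1 lower, beside 18.1% and 16.1% of all genes. The rise was at least 2-fold for 4 members, and of all genes 1.52% were called higher and 1.34% lower by that much. The median log2 difference was 0.06 over the members and 0.01 over all genes. For 56 of the 77 members the 95% interval of the difference lay within a 1.5-fold change either way. The groups did not overlap, with adult above, for 17 members and, with adult below, for 1, beside 20.9% and 18.7% of all genes.

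**Figure D1:**
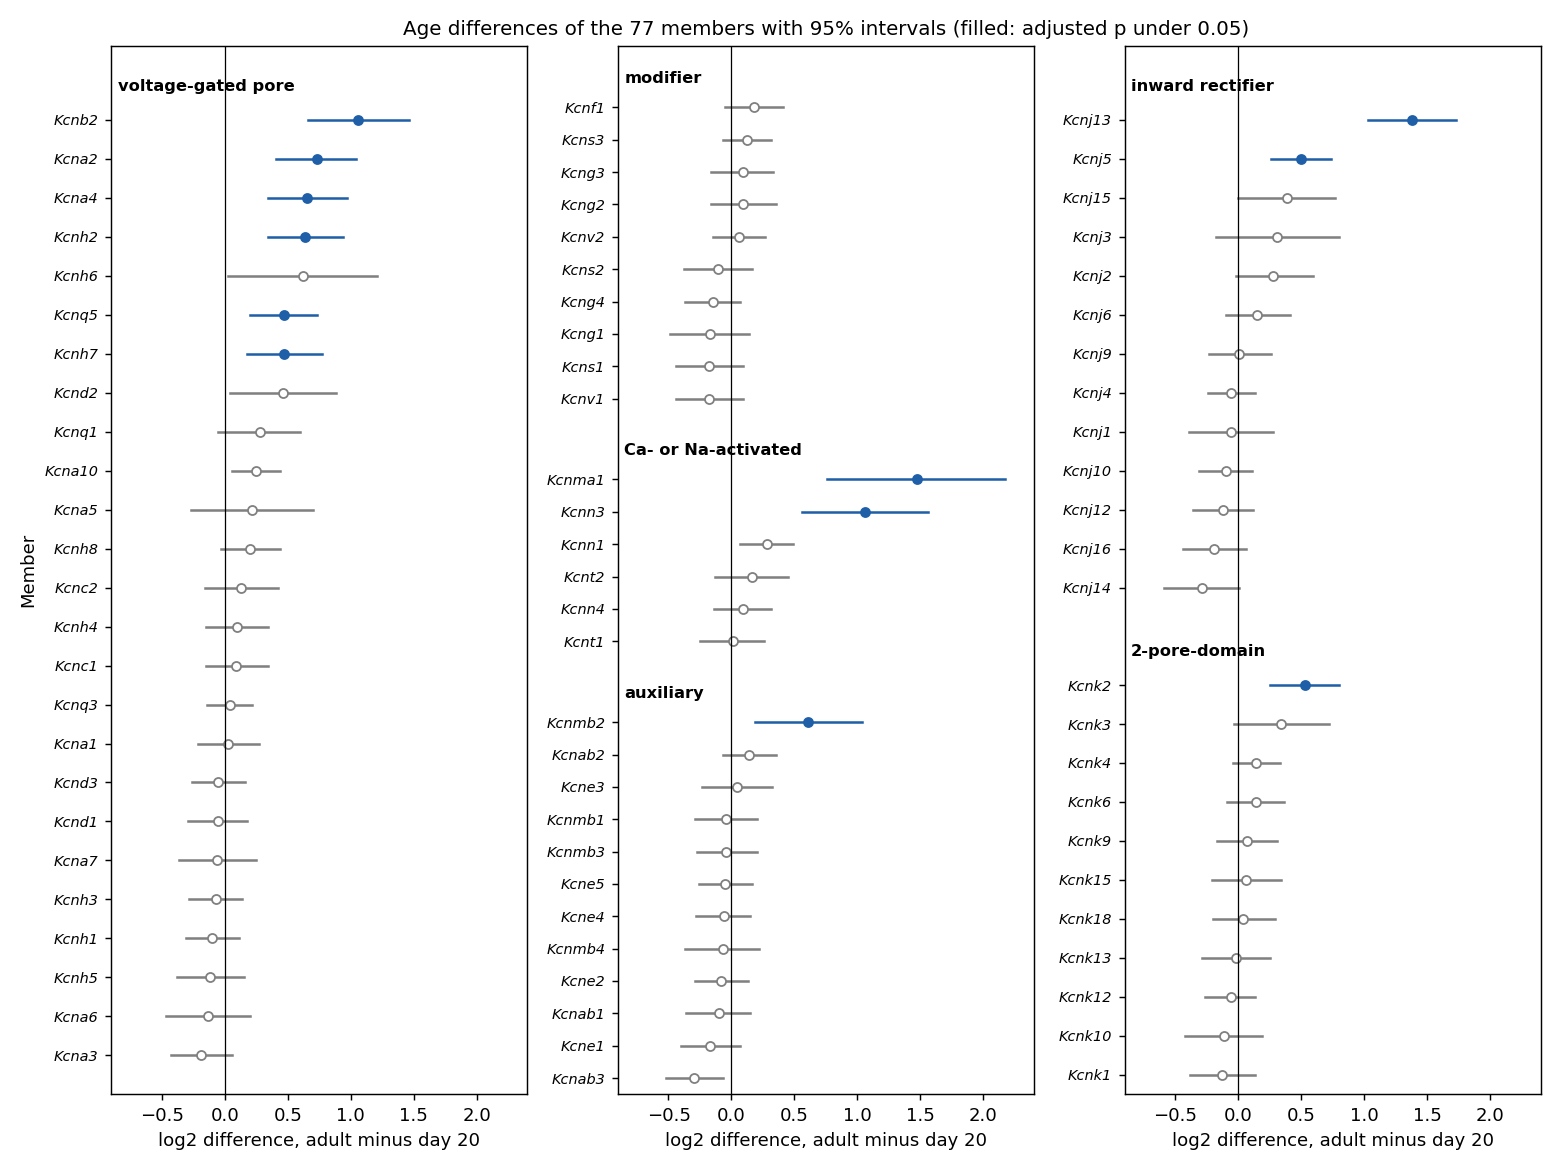
Log2 difference of each of the 77 members, adult minus day 20 (x axis), with its 95% interval from limma (lines), by role group. Filled blue points mark the 12 members with an adjusted p under 0.05, all to the right of 0, and open grey points the 65 others.

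Signal level bears on how often a gene is called. Of the members 32 had a mean above the array median at some age, and 8 of these were called higher and 0 lower, which is 25% and 0%. Over all genes above the median at some age 18.2% were called higher and 15.5% lower. The other 45 members lay under the median at both ages, and 4 of them were called higher and 0 lower, which is 8.89% and 0%. Over all genes under the median at both ages 1.83% were called higher and 3.55% lower. Means under the first quartile at both ages were found for 9 members, namely Kcnt2, Kcnh5, Kcna6, Kcnc2, Kcnj1, Kcnj16, Kcnv1, Kcne3 and Kcnh8, whose expression is not shown by these arrays.

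**Figure D2:**
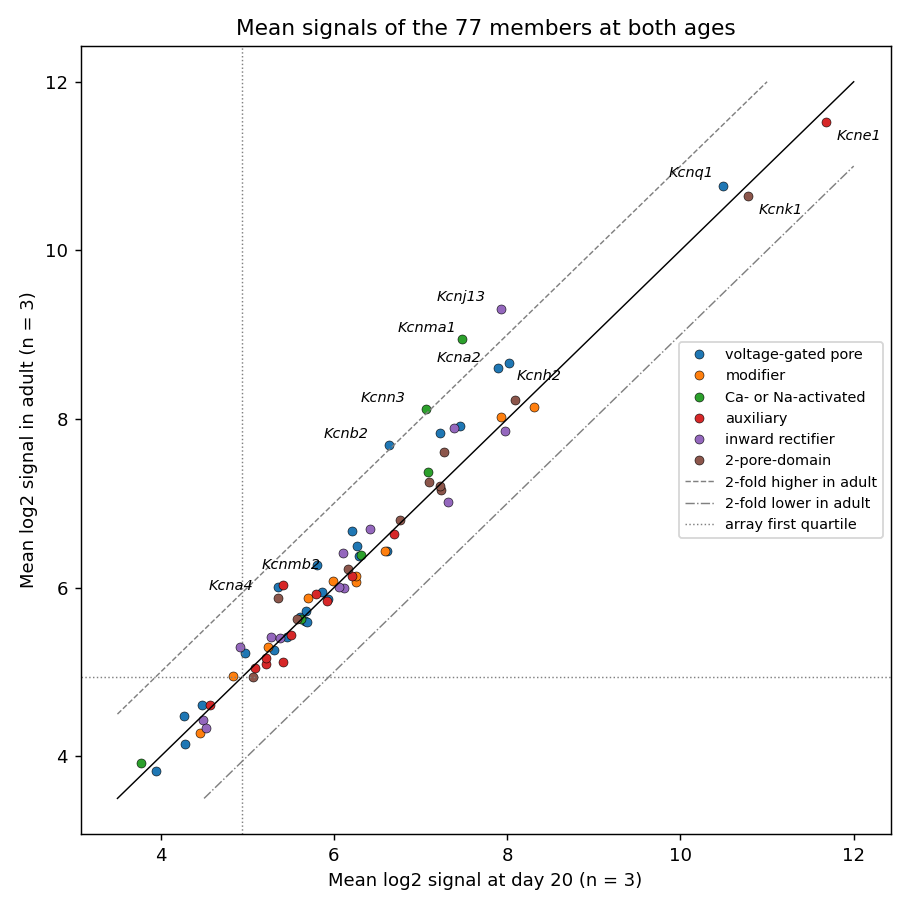
Mean log2 signal of each member at day 20 (x axis) and in adult (y axis), n = 3 each, coloured by role group. The solid line marks equal signals, the dashed and dash-dotted lines a 2-fold difference, and the dotted lines the array first quartile. Kcnma1, Kcnj13, Kcnn3 and Kcnb2 sit at or above the upper 2-fold line and no member reaches the lower one.

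Promoter sequences from RefSeq (build GRCr8) could be matched to 54 of the 77 members and 10 of the 12 called ones. Shown here, since the 12 called members were all higher in adult, are the 250 bases before the annotated start of the 3 with the largest differences that have an entry. They lie at chr15:351675-351924 on the plus strand, chr9:95518987-95519236 on the minus strand and chr2:177234090-177234339 on the plus strand. Capitals mark a GC box (GGGCGG or its reverse complement, overlapping copies included) or a TATA motif (TATAAA on either strand).
Kcnma1: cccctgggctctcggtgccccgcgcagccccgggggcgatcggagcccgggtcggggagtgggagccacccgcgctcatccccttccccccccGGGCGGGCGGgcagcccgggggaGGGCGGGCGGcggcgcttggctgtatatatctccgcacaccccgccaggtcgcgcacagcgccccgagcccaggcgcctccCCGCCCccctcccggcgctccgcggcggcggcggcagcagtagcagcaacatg
Kcnj13: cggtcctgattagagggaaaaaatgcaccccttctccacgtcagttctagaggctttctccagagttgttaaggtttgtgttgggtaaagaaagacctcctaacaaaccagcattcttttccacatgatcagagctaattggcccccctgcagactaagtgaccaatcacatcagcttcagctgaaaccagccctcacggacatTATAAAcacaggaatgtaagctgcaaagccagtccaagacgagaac
Kcnn3: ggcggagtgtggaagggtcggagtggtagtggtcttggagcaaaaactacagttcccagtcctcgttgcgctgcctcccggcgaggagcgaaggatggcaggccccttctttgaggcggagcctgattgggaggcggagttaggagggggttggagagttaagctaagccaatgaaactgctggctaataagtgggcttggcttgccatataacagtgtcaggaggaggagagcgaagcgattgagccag
The 3 windows differ in composition. That of Kcnma1 is 79.6% G and C with 33 CpG pairs and 5 GC boxes, that of Kcnj13 is 46.8% with 4 CpG pairs and 1 TATA motif, and that of Kcnn3 is 57.2% with 11 CpG pairs and no match to either motif. A GC box was present in 4 of the 10 called members, in 25 of the 54 members (46.3%) and in 32.4% of 27456 promoter windows of this length. The TATA motif was present in 1 of the 10, in 2 of the 54 (3.7%) and in 13.1% of all windows. Matches on either strand to TAATTA, a core bound by homeodomain factors, and to CAGATG, an E-box, were found in 0 of the 10, each in 1 of the 54 (1.85%), and in 4.94% and 13.7% of all windows. The median GC content was 59.6% over the members and 52% over all windows.

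Calcium-activated pores held the member with the largest log2 difference. Of 6 pores opened by calcium or sodium, 2 were called higher (33.3%) and 0 lower, beside 11.8% and 10.9% of all genes. All 6 differences were positive, with a median of 0.22. Kcnma1 (probe set 10778953), the pore of the large-conductance channel that opens on calcium and depolarisation together, had log2 signals of 9.64, 8.60 and 8.61 in adult replicates 1, 2 and 3 and of 7.54, 6.97 and 7.94 at day 20. The lowest adult array lay 0.66 above the highest day 20 array, and adult replicate 1 stood above the other 2. The means were 8.95 ± 0.60 and 7.48 ± 0.49 (SD, n = 3), a 2.76-fold difference (adjusted p = 0.01). With the pan-endocrine mean in the fit the log2 difference of 1.47 became 0.37 and the call was lost (adjusted p = 0.37). Kcnn3, a small-conductance channel gated through calmodulin that hyperpolarises the cell after calcium entry, had signals of 8.74, 7.81 and 7.80 in adult and of 7.05, 7.08 and 7.05 at day 20. The day 20 arrays were nearly alike while adult replicate 1 was again the highest. The means were 8.12 ± 0.54 and 7.06 ± 0.02 (n = 3), a 2.08-fold difference (adjusted p = 0.0099).

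The other calcium- and sodium-activated pores did not pass. Kcnn1, a relative of Kcnn3, had adult signals of 7.37, 7.37 and 7.38, above the day 20 signals of 7.22, 7.08 and 6.97, with a log2 difference of 0.28 (adjusted p = 0.057). It passed with arrays centred on their median (adjusted p = 0.048), with genes of low signal removed (0.038), with array weights (0.028) and without day 20 replicate 1 (0.04). Kcnn4, the intermediate-conductance channel of blood cells and epithelia, overlapped between the ages (6.39 ± 0.11 against 6.31 ± 0.11, n = 3). Kcnt1, a sodium-activated pore, differed by 0.01, with an interval of -0.25 to 0.26.

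Among the auxiliary subunits of the large-conductance channel, Kcnmb2, which gives the channel inactivation, was the 1 called. Its signals were 6.40, 5.84 and 5.85 in adult and 5.26, 5.22 and 5.77 at day 20, a 1.53-fold difference (adjusted p = 0.044). The groups were only 0.07 apart, and the day 20 mean of 5.41 lay little above the first quartile. The call held in 1 of the 6 fits that leave out an array, without day 20 replicate 3, and the adjusted p rose to as much as 0.15 in the others. It was also lost when every row of the value table was tested. Kcnmb4, the subunit of neurons, Kcnmb1, that of smooth muscle, and Kcnmb3 differed by -0.07, -0.04 and -0.04, with intervals inside -0.37 to 0.22.

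The remaining auxiliary subunits had no call. In all, 1 of 12 auxiliary subunits was called higher (8.33%) and 0 lower, beside 11.8% and 10.9% of all genes. Among the 12, 3 differences were positive, and the median was -0.06. Kcnab3, a cytoplasmic beta subunit of Shaker-type channels, had the largest negative difference of all members. Its adult signals of 5.02, 5.13 and 5.20 lay below those of day 20 at 5.38, 5.56 and 5.30, and it was the member with adult below day 20 without overlap (log2 difference of -0.30, adjusted p = 0.064). Array weights gave it a call. Its signals were close to the first quartile at both ages.

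Kcne1, a single-span subunit that slows the opening of Kcnq1, had signals of 11.39, 11.55 and 11.61 in adult and of 11.83, 11.66 and 11.56 at day 20. The groups overlapped, with a log2 difference of -0.17 and an interval of -0.40 to 0.07 (adjusted p = 0.31). Kcnq1, its pore, had signals of 10.52, 10.96 and 10.82 in adult and of 10.68, 10.54 and 10.24 at day 20, and did not pass either (log2 difference of 0.28, interval -0.05 to 0.60, adjusted p = 0.22). Both are also known in exocrine pancreas. The acinar marker mean was 13.48, 13.56 and 13.59 in adult and 13.66, 13.51 and 13.42 at day 20. Kcne1 had the same array order as this mean in both groups. Kcnq1 had it at day 20 but not in adult, where replicate 2 was its highest array. With 3 arrays per age such an order says little. The part of acinar RNA in these signals was not tested. The other Kcne subunits differed by between -0.08 and 0.04.

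Voltage-gated pores held 6 of the 12 calls. Of 25 measured, 6 were called higher (24%) and 0 lower, beside 11.8% and 10.9% of all genes. The difference was positive for 17 of the 25 and the median was 0.13. Kcnb2, a delayed rectifier of the Shab type, the class that carries most of the repolarising current of rodent beta cells, had signals of 8.09, 7.41 and 7.57 in adult and of 6.69, 6.41 and 6.80 at day 20. All adult arrays lay at least 0.61 above all day 20 arrays. The means were 7.69 ± 0.36 and 6.63 ± 0.20 (SD, n = 3), a 2.08-fold difference (adjusted p = 0.0037).

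Shaker-type pores were called higher for 2 of 8 measured genes, beside 11.8% of all genes. Kcna2, a delayed rectifier abundant in axons, had signals of 8.95, 8.48 and 8.41 in adult and of 7.86, 7.95 and 7.86 at day 20, a 1.65-fold difference without overlap (adjusted p = 0.0069). Kcna4, a fast-inactivating pore, had signals of 6.30, 5.74 and 5.97 in adult and of 5.45, 5.26 and 5.35 at day 20. It differed 1.57-fold without overlap (adjusted p = 0.011), with a day 20 mean of 5.35 that was little above the first quartile. Kcna5 spread widely at day 20, at 6.02, 5.94 and 6.84 against adult signals of 6.62, 6.50 and 6.34, and passed in 1 of the fits run, that without day 20 replicate 3 (adjusted p = 0.018, against 0.54 with all arrays). Kcna3, the channel of lymphocytes, differed by -0.19 with overlap. Kcna10 was above day 20 in all adult arrays, by 0.15, at signals around 5 (5.22 against 4.97, adjusted p = 0.068).

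Of the ether-a-go-go family, 2 of 8 measured members were called higher (25%), beside 11.8% of all genes. Both belong to the ERG subfamily, whose slow deactivation shapes repolarisation. Kcnh2 had signals of 8.96, 8.47 and 8.56 in adult and of 8.0, 8.13 and 7.94 at day 20. No arrays overlapped, and the difference was 1.56-fold (adjusted p = 0.009). Kcnh7 had signals of 6.53, 6.19 and 6.09 in adult and of 5.63, 5.91 and 5.84 at day 20, a 1.39-fold difference (adjusted p = 0.031). That call held in 1 of the 6 fits with an array left out, without adult replicate 3, and the adjusted p was as high as 0.11 in the others. It was also lost with every row of the value table tested. The gene partly overlaps Gca, a calcium-binding protein gene, which differed by 0.04 (adjusted p = 0.83). Kcnh6, the remaining ERG pore, had a difference close to that of Kcnh2, 0.62, but its day 20 arrays spread from 6.77 to 7.84 into the adult range of 7.57 to 8.18 (adjusted p = 0.13). Without day 20 replicate 3 it passed, at 0.93 (adjusted p = 0.0091), and with the pan-endocrine mean in the fit its difference was negative, at -0.29 (adjusted p = 0.46). The other 5 members of the family differed by between -0.12 and 0.20.

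Among the remaining voltage-gated pores, Kcnq5, a subunit of the M-type current that muscarinic receptors close, had signals of 7.84, 7.96 and 7.97 in adult and of 7.23, 7.66 and 7.49 at day 20. The groups were 0.18 apart and the difference 1.38-fold (adjusted p = 0.022), a call lost without adult replicate 2, adult replicate 3 or day 20 replicate 1 (largest adjusted p 0.07). Kcnq3, which can join it in neurons, differed by 0.04, with an interval of -0.14 to 0.22. Kcnd2, a pore of the fast transient current, was higher in all adult arrays by at least 0.04 but missed the threshold, at a log2 difference of 0.46 (adjusted p = 0.11). It passed in 1 of the fits run, that without adult replicate 3 (0.64, adjusted p = 0.043). Kcnd1, Kcnd3, Kcnc1 and Kcnc2 differed by between -0.05 and 0.13.

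The modifier subunits form no channel alone and alter Shab pores when they join them. These subunits had 0 calls among 10, beside 22.7% of all genes. Their differences ran from -0.18 to 0.18, with a median of -0.03, and none had an unadjusted p under 0.05. Kcng1 had the mean signals 8.14 ± 0.20 in adult and 8.31 ± 0.22 at day 20, and Kcng2 8.02 ± 0.18 and 7.93 ± 0.11 (SD, n = 3). Both overlapped between the ages. Kcns3 lay at the first quartile at both ages.

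Inward rectifiers held the member with the smallest p. Of 13 measured, 2 were called higher (15.4%) and 0 lower, beside 11.8% and 10.9% of all genes. The difference was positive for 7 of the 13 and the median was 0.01. Kcnj13 (probe set 10929656), a weakly rectifying pore of low conductance known from ion-transporting epithelia, had signals of 9.26, 9.43 and 9.25 in adult and of 7.77, 8.31 and 7.71 at day 20. The lowest adult array was 0.94 above the highest day 20 array, the widest gap of any member. The means were 9.31 ± 0.10 and 7.93 ± 0.33 (SD, n = 3), a 2.61-fold difference (adjusted p = 5.9e-04). The Kcnj13 gene lies within the body of Gigyf2, a regulator of translation, in the RefSeq annotation. Gigyf2 itself did not pass, with signals of 9.24 ± 0.04 in adult and 9.42 ± 0.15 at day 20 (log2 difference of -0.18, adjusted p = 0.24).

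Kcnj5, a G protein-gated pore that opens on release of beta-gamma subunits by inhibitory receptors, had signals of 7.93, 7.77 and 7.98 in adult and of 7.22, 7.50 and 7.46 at day 20. The groups were 0.27 apart and the difference 1.41-fold (adjusted p = 0.011). Its possible partners of the same class, Kcnj3, Kcnj6 and Kcnj9, did not pass and overlapped between the ages, with differences of 0.31, 0.15 and 0.01 and intervals of -0.18 to 0.80, -0.10 to 0.41 and -0.23 to 0.26. Strong rectifiers, which set the resting potential of muscle and nerve, had mixed signs. Kcnj2 differed by 0.28 (adjusted p = 0.17) and passed in 1 of the fits run, that without day 20 replicate 3 (0.43, adjusted p = 0.025). Kcnj14 differed by -0.29 (0.15), Kcnj12 by -0.12 and Kcnj4 by -0.06. Kcnj15 was at 5.66, 5.35 and 4.90 in adult and at 4.95, 4.81 and 5.0 at day 20, near the first quartile, and passed in 1 of the fits run, that without adult replicate 3 (adjusted p = 0.02, against 0.15 with all arrays).

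Subunits with 2 pore domains carry background current at rest. Of 11 measured, 1 was called higher (9.09%) and 0 lower, beside 11.8% and 10.9% of all genes. The median difference of the 11 was 0.06. Kcnk2, opened by stretch and by lipids, had signals of 5.89, 6.01 and 5.74 in adult and of 5.32, 5.18 and 5.56 at day 20. The groups were 0.18 apart and the difference 1.44-fold (adjusted p = 0.014), at signals not far above the first quartile. The call was lost without day 20 replicate 1 or 2 (largest adjusted p 0.053). Kcnk3, an acid-sensitive background channel, had signals of 7.77, 7.50 and 7.58 in adult and of 7.30, 6.90 and 7.60 at day 20, and passed in 1 of the fits run, that without day 20 replicate 3 (adjusted p = 0.039, against 0.18 with all arrays). Kcnk1, a weakly conducting background channel, had mean signals of 10.65 ± 0.17 and 10.78 ± 0.12 (n = 3), with an interval of the difference of -0.38 to 0.13. Kcnk6, its relative, differed by 0.14 (interval -0.09 to 0.36). Kcnk9, the relative of Kcnk3, differed by 0.07 with overlap.

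**Figure D3:**
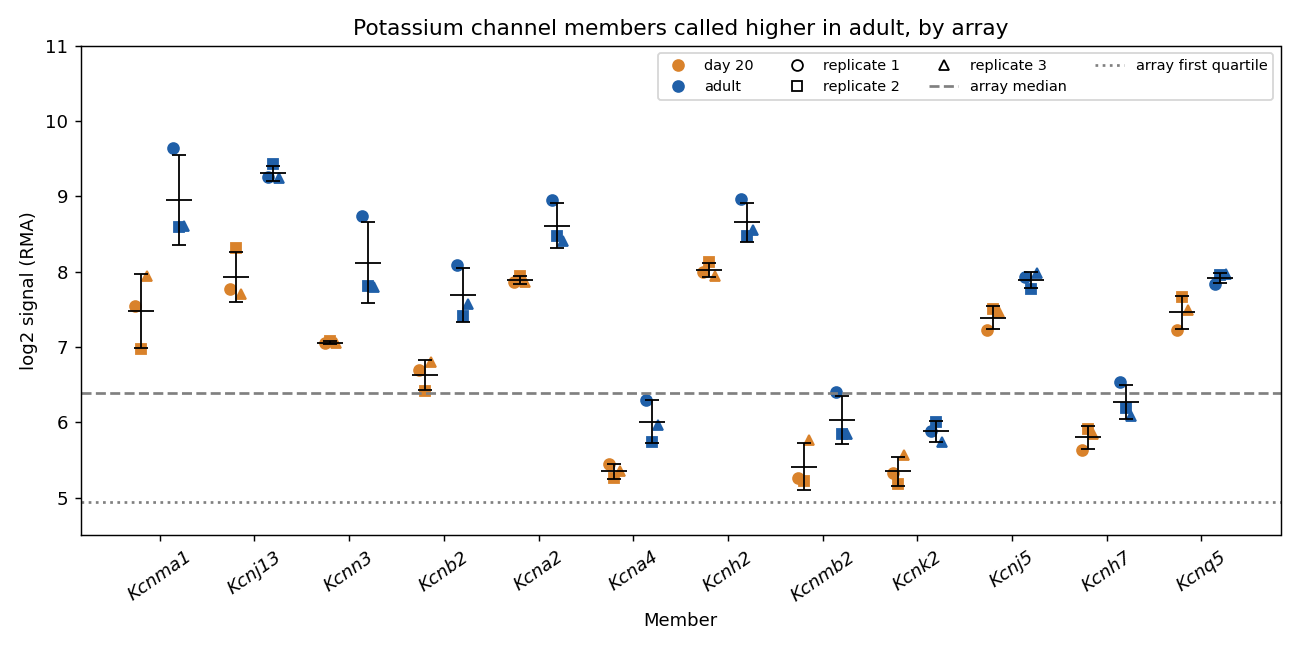
Log2 signal (y axis) of the 12 called members on each array, with day 20 in orange and adult in blue, symbols for replicates 1 to 3, and black bars for the mean and SD (n = 3). The groups do not overlap for any of the 12, which were picked by their adjusted p on these same arrays. Of all genes 20.9% had adult above day 20 without overlap. Adult replicate 1 (blue circle) is the highest adult array for 8 of the 12.

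Preparations of 1 age also differed among themselves. Adult replicate 1 was the highest adult array for 8 of the 12 called members. Kcnj13, Kcnk2, Kcnj5 and Kcnq5 were the 4 exceptions. Of all 77 members it was the highest for 24 and the lowest for 36. Over all 14506 genes it was the highest for 5565 and the lowest for 5680, more often at either end than adult replicates 2 and 3. The mean of 12 pan-endocrine genes was also highest in adult replicate 1, at 11.24 against 10.55 and 10.73 in adult replicates 2 and 3. Most of these genes act in hormone processing and granules, and none is a channel. Of this list 9 were called higher in adult and 0 lower, while Pcsk1n differed by -0.29 (adjusted p = 0.4). The mean was 9.95, 9.39 and 10.40 in day 20 replicates 1, 2 and 3. With this mean as a covariate all 12 differences kept a positive sign and 1 passed the threshold, that of Kcnj13, which went from 1.38 to 1.82 (adjusted p = 0.001). For Kcnma1 the difference went from 1.47 to 0.37 (interval -0.09 to 0.83, adjusted p = 0.37) and for Kcnmb2 from 0.61 to 0.03 (interval -0.39 to 0.44). For Kcnb2 it went from 1.06 to 0.51 (interval 0.11 to 0.91, adjusted p = 0.15) and for Kcnn3 from 1.06 to 0.63 (interval -0.09 to 1.35). The differences of Kcnj5, at 0.50 and 0.49, and Kcnh2, at 0.64 and 0.54, moved little. That of Kcnq5 rose from 0.47 to 0.64 (interval 0.23 to 1.06, adjusted p = 0.083). In that fit 2.12% of all genes were called higher and 3.21% lower. The mean itself differed with age, so in that fit the share of endocrine cells and the age of the cells cannot be told apart. Of the 65 members not called with all arrays, 23 changed the sign of their difference with this covariate, and for 4 of these the difference was at least 0.2 in both directions. Kcnj3 went from 0.31 to -0.43 (adjusted p = 0.18), Kcnh6 from 0.62 to -0.29 (0.46), Kcna5 from 0.22 to -0.39 (0.44) and Kcnk3 from 0.34 to -0.20 (0.51). Without the arrays holding the adult maximum and the day 20 minimum of the pan-endocrine mean, 8 of the members were called higher, Kcna2, Kcnb2, Kcnh2, Kcnj13, Kcnj5, Kcnma1, Kcnn3 and Kcnq5. In that fit of 4 arrays 6.46% of all genes were called higher and 6.37% lower.

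**Figure D4:**
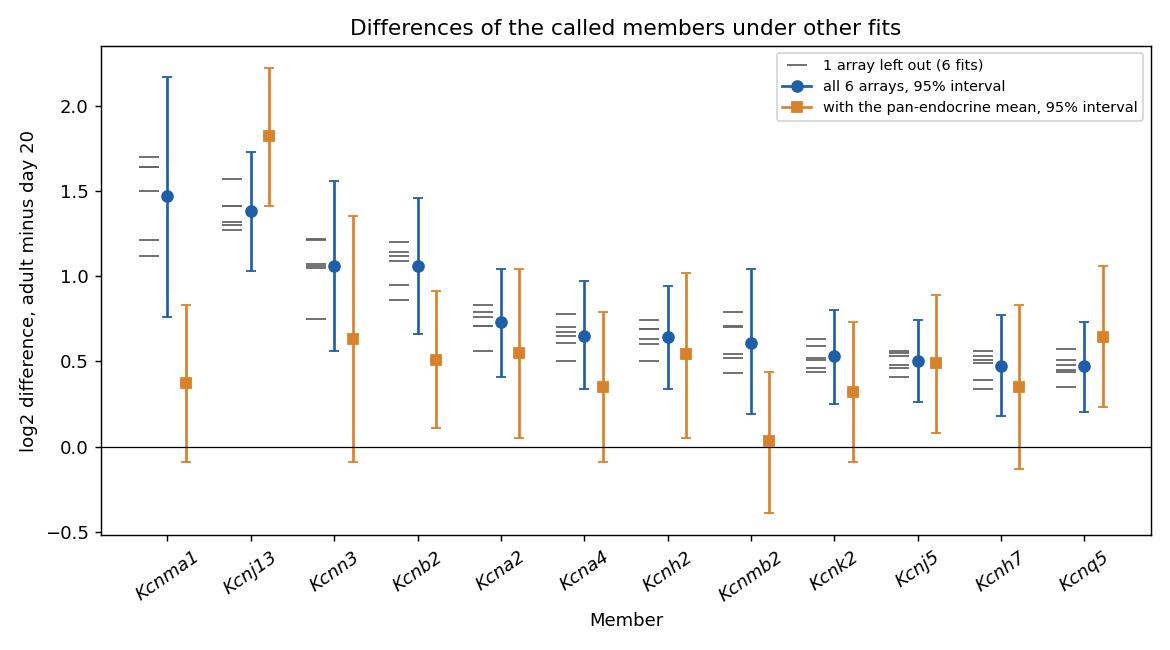
Log2 difference of each called member, adult minus day 20 (y axis), with 1 array left out in turn (grey dashes), with all 6 arrays (blue, 95% interval) and with the pan-endocrine mean added to the fit (orange, 95% interval). The orange value of Kcnj13 lies above the blue one, at 1.82 against 1.38, and that of Kcnma1 below it, at 0.37 against 1.47.

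The call was most stable for 8 of the 12. Kcna2, Kcna4, Kcnb2, Kcnh2, Kcnj13, Kcnj5, Kcnma1 and Kcnn3 passed in each of the 6 fits with an array left out. Against a minimum change of 1.2-fold, 4 members passed, Kcnb2, Kcnj13, Kcnma1 and Kcnn3, all higher in adult, beside 3.07% of all genes higher and 3.36% lower by that test.

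Proteins that bind or regulate these channels, or carry related currents, were counted from a separate list. Of 34 genes listed 31 were measured. Adult signals were higher for 7 of them and lower for 1, beside 11.8% and 10.9% of all genes, and the median difference was 0.10. The signal of Lrrc55, a gamma subunit of the large-conductance channel, was 7.04, 6.0 and 6.26 in adult and 5.30, 5.09 and 5.18 at day 20, a 2.37-fold difference without overlap (adjusted p = 0.0055). The other measured gamma subunits, Lrrc26, Lrrc38 and Lrrc52, differed by 0.02, 0.01 and -0.03. Amigo1, a membrane protein that accompanies Shab pores, had signals of 7.97, 7.95 and 7.95 in adult and of 7.13, 7.12 and 7.39 at day 20 (1.67-fold, adjusted p = 0.0012). Dpp10, a partner of the transient Kcnd pores, also passed (adjusted p = 0.042), with means of 5.0 ± 0.44 in adult and 4.30 ± 0.24 at day 20 (n = 3), the latter under the first quartile. Its relative Dpp6 was 0.60 higher on the log2 scale and did not pass (adjusted p = 0.16). Hcn4, a pore opened by hyperpolarisation and cyclic AMP that passes sodium and potassium, was 1.81-fold higher (8.14 ± 0.46 against 7.28 ± 0.17, n = 3, adjusted p = 0.017), while Hcn2 and Hcn3 did not pass, at 0.20 and 0.32. The remaining 3 higher genes were Kcnj11, Kcnip3 and Snap25. Abcc9, the sulfonylurea receptor of vascular ATP-sensitive channels, was the gene that fell, at 5.84, 5.73 and 5.99 in adult and 6.56, 6.12 and 6.31 at day 20 (adjusted p = 0.026). Its pore partner Kcnj8 differed by -0.15 and did not pass (adjusted p = 0.42). Markers of pericytes and smooth muscle, cells that express this pair, were lower in adult for 3 of 9, with means per array of 6.31 to 6.46 against 6.67 to 6.87, and their part in the fall of Abcc9 was not tested.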

How the data were processed

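Total RNA of 6 preparations was measured on 1 array each. The authors deposited 1 log2 value per probe set and array, from RMA, per the submitters' processing notes. RMA equalises the distributions of the arrays. Differences between very dim or very bright array signals can be understated. Their range, 1.73 to 14.7, fits log2 values, and no label states the scale. The software version, genome build and annotation used for RMA are not given in the sources used. Groups and replicate numbers came from the sample titles.

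Probe sets were named through the platform annotation, with symbols updated through RefSeq by Entrez identifier (15279) or accession (1) and kept for 30. Several symbols (323, 1 of them with Kcn genes) or none (13581) left a probe set unnamed. A gene with more than 1 probe set was represented by its brightest, averaged over the 6 arrays. Of 34 members fixed for their known role in beta cells 28 were measured, and the rest are not analysed here.

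Adult was compared with day 20 with limma 3.58.1 (lmFit, then eBayes, two-sided) under R 4.3.3, over 14506 genes, with Benjamini-Hochberg adjustment, and all adjusted p-values come from such models. The procedure was tested on simulated data, with the outcome not given here. Intervals are the model's 95% intervals. Replicates are called biological in the labels, and precision is limited by 3 arrays per age. Signals per array are named for members past the threshold and for the fixed members, the rest by ranges. A fold is 2 raised to the log2 difference. The members, lists and alternatives were chosen with earlier results of these data known. Promoter motifs and Gigyf2 were looked up after the values were seen. Python 3.11.15, pandas 2.3.3 and matplotlib 3.10.9 were used for tables and figures.

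The titles name no pairing of the replicates of the 2 ages. Deviations of replicates with the same number correlated over genes at -0.19, 0.19 and -0.21 for replicates 1, 2 and 3. Pairs of unlike number ran from -0.30 to 0.37. With 3 arrays per age these correlations depend on each other, so they cannot decide whether the preparations were paired.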

Additional observations from a re-analysis of the deposited data

How the results depend on the processing

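The count of 12 members higher and 0 lower in adult was 9 to 15 higher and 0 lower with each array left out in turn. In those fits 7.34% to 11% of all genes were called higher and 7.42% to 9.2% lower. The member count was 10 to 13 higher with a second quantile normalization, median centring, trend and robust variances, other handling of probe sets, every table row tested, or array weights. Beside it, 8.71% to 13.6% of all genes were higher and 8.54% to 12.6% lower. With genes of low signal removed, 10 of the 40 members still tested were higher and 0 lower. Of all genes tested there, 19.1% were higher and 16% lower. Array weights called 1 member lower, Kcnab3. With the pan-endocrine mean added to the fit 1 was higher, and against a 1.2-fold change 4 were. With the arrays of its adult maximum and day 20 minimum left out together, an alternative chosen after seeing the data, 8 were higher. With the replicate number as a block, though the titles name no pairing, 10 were higher and 0 lower. Kcnh7 and Kcnmb2 lost their call there (adjusted p = 0.071 and 0.068). Over all genes the block gave 1384 higher and 1225 lower, against 1718 and 1576. The removal of dim genes left Kcna4, Kcnk2 and Kcnmb2 untested. No called member changed sign in any of these fits. Signal over background could not be judged without detection calls.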
